A study of Mus musculus with 45 samples.

Results

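YEJH-M2 is a mouse mammary carcinoma cell line taken from the lung, and its 3 RNA-seq libraries were picked by the cell line name in the sample titles, out of 45 libraries from 15 lines. It was set against the 4 other lung lines with the same prefix, YEJH-M1, YEJH-M3, YEJH-M4 and YEJH-M5, which gave 12 libraries, 3 for each line. All of these lines descend from PyMT+ cells, which carry the polyoma middle T oncogene as a driver of mammary tumours, and the labels name no treatment or further genetic change for any of them. The labels give the site of YEJH-M2, YEJH-M1, YEJH-M4 and YEJH-M5 as whole lung and that of YEJH-M3 as lung metastases. The sex, age and strain of the animals behind each line are not in the labels. The 5 fat-pad lines YEJH-FP1 to YEJH-FP5 and the primary tumour line YEJH were used only to see whether a level of YEJH-M2 also lay beyond lines from outside the lung.

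The study describes its repeats of a line as technical, and each line gave 3 libraries. All p-values between libraries therefore measure the spread between repeats, and YEJH-M2 is 1 line. With 1 line against 4, an exact permutation test whose one-sided p is doubled cannot give a p below 0.4.

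Lines grown out of lung metastases of one tumour model share their oncogene and their epithelial origin. Single lines can still differ, because each descends from the tumour cells that reached the organ and grew on in culture. The PyMT model is known for mammary tumours of luminal type that spread to the lung.

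The 15 lung libraries held between 9723860 and 16922400 reads on genes, and those of YEJH-M2 between 13204100 and 16693900. The library names carry 1 of 2 run names, here A and B, and every line had libraries in both. Repeats 2 and 3 of YEJH-M2 were in run A and repeat 1 was in run B. Repeat 2 of YEJH-M3 stood apart, with 13.3% of its reads outside annotated features and 15.2% not aligned, against at most 7.99% and 6.402% in the 14 others. The main counts below are therefore also given without that library. The mammary epithelial markers were abundant in YEJH-M2, and all 11 of them were tested, with Krt8, a keratin of simple epithelia, at a mean of 50162 normalised counts. The summed level of these markers was 142966 to 161951 in YEJH-M2 and 115156 to 175762 in the other libraries. Markers of lung epithelium were at 0 in all 15 libraries for 5 of 7 genes, and Ager was near 0. Foxj1, which marks ciliated cells in the lung, had a mean of 269 normalised counts in YEJH-M2. The 7 lung epithelial markers summed to 266 to 273 in YEJH-M2 and to 216 to 1009 in the other libraries. The leukocyte markers summed to 113 to 139 in YEJH-M2 and 94.1 to 151 in the others, with Lyz2, Cd3e and Itgam at 0. Fibroblast markers summed to 59.3 to 72.6 against 33.3 to 89.7, and endothelial markers to 7.78 to 15.5 against 0.989 to 12.1. The pan-leukocyte gene Ptprc was at 1.91 in YEJH-M2, and the collagen gene Col1a1 at 4.46. A normalised count is a read count divided by its library's size, scaled by TMM, relative to the mean library, and levels are not corrected for gene length.

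A gene was called when YEJH-M2 differed in the same direction from each of the 4 other lines, with library run as a covariate, at an adjusted p under 0.05. The p of a gene was the largest of its 4 pairwise p-values from edgeR's quasi-likelihood test, adjusted by Benjamini-Hochberg over 13599 genes. Unless stated otherwise, the adjusted p printed with a named gene is from this rule. It does not test the gene's difference from the mean of the 4 lines. The rule called 73 genes higher in YEJH-M2, 0.537% of those tested, and 32 genes lower, 0.235%. Without repeat 2 of YEJH-M3, 104 genes were higher (0.754%) and 51 lower (0.37%), and these included all 105 of the genes called with it. Among single libraries left out, the lowest counts came without the YEJH-M2 library of run B, with 36 genes higher and 19 lower. In each run taken alone, all 105 genes lay outside the range of the 4 other lines on the same side. Both runs had entered the call, so this is no independent check. Run B held only 1 library of YEJH-M2.

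Lying outside the 4 other line levels is in itself frequent. Without any test, the fitted level of YEJH-M2 was above all 4 lines for 15.9% of genes and below all 4 for 18.7%. The 3 YEJH-M2 libraries lay wholly above the 12 others for 2.18% of genes and wholly below for 1.88%. Among the called genes, 73 of 73 higher and 29 of 32 lower ones did not overlap between libraries. The call used these same libraries, so this non-overlap follows largely from it. The distance to the nearest other line, in log2 units, had a median of 1.41 for the higher genes, and 51 of them were at least 1 log2 unit away. For the lower genes the median was -0.80, and 11 were at least 1 unit away. Of the 105, 97 were protein-coding genes.

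Among genes of at least 50 normalised counts other than predicted and Rik transcripts, the most distant higher one was Piezo2, which encodes a mechanically gated cation channel of sensory neurons and Merkel cells (chromosome 18, 63143284 to 63520260, GRCm39). Its normalised counts in the 3 repeats of YEJH-M2 were 151, 151 and 165. The 12 other libraries ranged from 0 to 13.9 with a median of 6.98, so no library overlapped. The difference from the mean of the 4 lines was 5.13 ± 0.19 on the log2 scale (SE), and the nearest line, YEJH-M4, was 3.66 away (edgeR adjusted p = 8.38e-07). Fat-pad libraries reached at most 1.94 counts, and the YEJH libraries were at 0.

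Secreted and membrane proteins followed. Glipr1, a CAP-family secreted protein gene on chromosome 10 (111821353 to 111838536), was at 1013, 922 and 889 in YEJH-M2. The other lung libraries spread from 41.5 in YEJH-M5 to 310 in YEJH-M3, and the primary tumour line YEJH had 1.09 to 2.55. Its log2 difference was 2.87 ± 0.10 (edgeR adjusted p = 2.05e-06). Cldn9, a claudin of tight junctions, was at 167, 215 and 252 in YEJH-M2 against 11.9 to 47.1 elsewhere in the lung lines. Ckap4, a membrane protein of the endoplasmic reticulum, was at 610, 559 and 561. The lines YEJH-M1, YEJH-M3 and YEJH-M4 had 123 to 169 for Ckap4 and YEJH-M5 had 24.2 to 34.6, so this gene gave 3 tiers. Slc9a2, a sodium and proton exchanger, was at 324, 331 and 271 against 2.56 to 120.

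Armcx2, an X-linked member of the armadillo repeat family, was at 207, 193 and 171 in YEJH-M2, above a range of 2.02 to 56.9. Dhh, the hedgehog ligand best known from Schwann and Sertoli cells, was at 158, 150 and 170, with YEJH-M1 next at 43.4 to 56.9. Rinl, a regulator of Rab GTPases, was at 169, 171 and 156 against 12.8 to 53.6. Bend4 was at 207, 158 and 160, and here YEJH-M5 came next with 47.4 to 59.7. The identity of the nearest line thus changed from gene to gene, and it was YEJH-M1 for 28 of the 73 higher genes, YEJH-M4 for 23, YEJH-M3 for 13 and YEJH-M5 for 9.

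Gatm and Ckb both act on creatine, and the groups did not overlap for either. Gatm, which catalyses the opening step of creatine synthesis, was at 69.0, 67.7 and 76.9 in YEJH-M2 against 1.71 to 29.9. Ckb, the brain-type creatine kinase, was at 76.1, 62.2 and 73.5 against 5.93 to 24.8. Ckb was not called against all 10 other YEJH lines, because fat-pad libraries reached 47.3. Gmpr, which converts GMP to IMP, was at 64.6, 73.2 and 70.0 against 4.49 to 27.4. Dock3, an activator of Rac, was at 69.0, 45.5 and 67.4 against 3.96 to 33.3 in the lung lines, but the YEJH line had 87.4 to 112. Pate14 was at 50.4, 49.9 and 67.4 against 7.11 to 23.2.

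The 4 called genes with no reads at all on 1 side were chosen for mention after their values were seen. Xlr4a, a member of the X-linked Xlr family, had 21.2, 27.7 and 36.3 normalised counts in YEJH-M2 and 0 in the 12 other libraries. It was at least 9.14-fold higher against a floor of 3 counts per library. Foxc2, a forkhead factor of mesenchyme, had 24.8, 16.6 and 18.2 and was at least 6.38-fold higher. The transcript 2810459M11Rik had 92.0, 78.8 and 95.1 and was at least 28.5-fold higher. In the other direction, AA414768 had no reads in YEJH-M2 and 5.04 to 17.2 normalised counts in the 12 other libraries, at least 3.18-fold lower. The folds of these 4 are bounds set by depth.

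**Figure D1:**
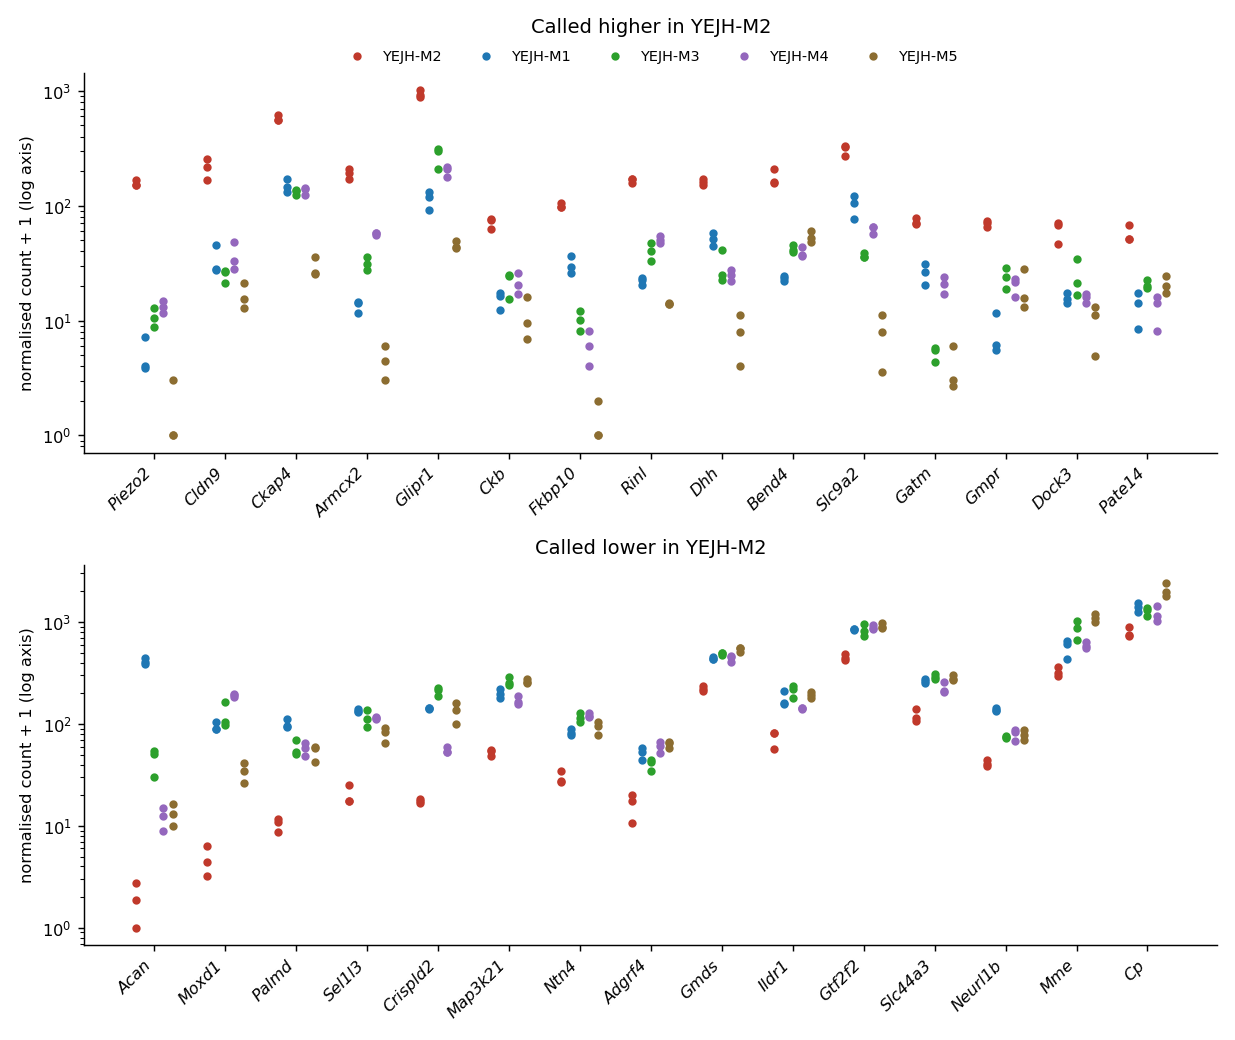
Normalised count plus 1 (log axis) of the 15 genes with the largest distance to the nearest line in each direction, 1 point for each of 15 libraries, coloured by line. For every gene shown the 3 YEJH-M2 points lie beyond the 12 others, which the choice of these genes required. By the fitted distance to the nearest line, Piezo2 comes first above and Acan first below.

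Among the lower genes, Acan encodes aggrecan, the large proteoglycan of cartilage (chromosome 7, 78702964 to 78764847). YEJH-M2 had 1.77, 0 and 0.865 normalised counts. YEJH-M1 had 389 to 443, and the 3 other lines had 7.94 to 53.7, so the 4 comparison lines themselves differed widely. From 3 reads in YEJH-M2, the ratio of YEJH-M2 to the others was 0.00852, with an exact 95% counting interval of 0.00175 to 0.0250. Moxd1, a copper monooxygenase related to dopamine beta-hydroxylase, was at 5.31, 2.22 and 3.46 against 25.2 to 195. Its log2 difference was -4.56 ± 0.29 (edgeR adjusted p = 0.000204).

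Palmd, a cytosolic protein related to paralemmin, was at 10.6, 9.99 and 7.78 against 41.4 to 110. Sel1l3 was at 23.9, 16.6 and 16.4 against 63.6 to 141. Crispld2, a secreted protein, was at 15.9, 16.6 and 17.3 against 51.6 to 226, but the YEJH line was lower still, at 3.39 to 6.55. Map3k21, a mixed-lineage kinase, was at 54.0, 47.7 and 53.6 against 157 to 289. Ntn4, a netrin that binds laminin, was at 25.7, 26.6 and 33.7 against 77.1 to 127. Adgrf4, an adhesion G protein-coupled receptor, was at 9.74, 16.6 and 19.02 against 33.8 to 66.3. These genes were expressed in every other lung line and were low in all repeats of YEJH-M2.

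For a pair of genes the 4 other lines were tightly grouped and YEJH-M2 sat close to 1 log2 unit below them. Gmds, the dehydratase that begins GDP-fucose synthesis (chromosome 13, 32002772 to 32522758), was at 221, 236 and 210 in YEJH-M2 against 408 to 556. Its log2 difference was -1.11 ± 0.07 (edgeR adjusted p = 3.18e-06). Gtf2f2, the small subunit of the general transcription factor TFIIF (chromosome 14, 76133118 to 76255984), was at 421, 483 and 442 against 731 to 972, a log2 difference of -0.97 ± 0.08 (edgeR adjusted p = 3.7e-05). Fat-pad and primary tumour libraries had 431 to 570 for Gmds and 809 to 939 for Gtf2f2. The 6 nearest tested neighbours of Gmds had a median log2 difference of -0.11, and those of Gtf2f2 of -0.03, and none of either set was called in the same direction.

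Slc44a3, a choline transporter-like protein, was at 141, 113 and 106 against 207 to 308. Ildr1, a receptor of tricellular junctions, was at 81.4, 81.0 and 56.2 against 139 to 233. Neurl1b, a ubiquitin ligase that acts on Notch ligands, was at 43.4, 37.7 and 39.8 against 66.6 to 142. The distances of the last genes in this group were small. Mme, the neprilysin gene, was at 292, 316 and 360 against 429 to 1188 (edgeR adjusted p = 0.0356), while the YEJH line had 147 to 326. Cp, the ceruloplasmin gene, was at 750, 721 and 888 against 1022 to 2442 (edgeR adjusted p = 0.0477). The calls of Mme and Cp were lost in 15 and 18 of the alternative settings, respectively.

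Gene lists were then read by how many members passed the test, beside the background of 0.537% higher and 0.235% lower. In the list of keratins and epithelial junctions, 33 of 43 genes were tested, 1 was lower and none higher. The lower gene was Ocln, which encodes occludin, a membrane protein of tight junctions, at 447, 449 and 477 in YEJH-M2 against 618 to 901, a log2 difference of -0.83 ± 0.06 (edgeR adjusted p = 0.000941). Without repeat 2 of YEJH-M3 a second member, Ppl, was lower too. With no test, 16 of the 33 lay below all 4 lines and 2 above, where 18.7% and 15.9% of all genes did. Their median log2 difference was -0.14, against -0.01 over all genes tested. Cldn7 had a log2 difference of -0.77, Evpl of -0.63 and Cdh1 of -0.21, and none of these 3 passed the test. They were picked from the lower side after their values were seen. The claudin gene Cldn9, which is not in this list, was called higher as given above.

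In the list of mesenchymal genes, 20 of 28 were tested, 1 was higher and 1 lower. Sparc, a collagen-binding matricellular protein, was at 1916, 1677 and 1690 in YEJH-M2. YEJH-M1 had 1040 to 1157 and the 3 remaining lines 168 to 521, so Sparc was graded over the lines, with a log2 difference of 2.06 ± 0.08 (edgeR adjusted p = 0.00331). Thbs1, thrombospondin 1, moved the other way, at 32331, 32329 and 32221 against 42249 to 62955 (edgeR adjusted p = 0.00378). Of the 20, 9 lay above all 4 lines and 2 below, and the median log2 difference was 0.33. Vim had a log2 difference of 0.66 and Snai2 of 0.89, neither past the test. Both were picked from the higher side after their values were seen.

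Chemokines, cytokines and growth factors for myeloid cells gave 3 higher genes of 22 tested and no lower one. Cxcl12, the ligand of Cxcr4, was at 165, 179 and 190 in YEJH-M2, with YEJH-M1 next at 66.5 to 101 and YEJH-M5 at 1.01 to 5.97 (edgeR adjusted p = 0.0146). Ccl2, which attracts monocytes, was at 74.3, 51.1 and 45.8 against 1.02 to 25.8 (edgeR adjusted p = 0.00485), while fat-pad libraries reached 54.5. Il1a, an interleukin 1 ligand, was the most abundant, at 3799, 3172 and 3073 against 814 to 2192, with a log2 difference of 1.40 ± 0.08 (edgeR adjusted p = 0.00349). A further member, Cxcl5, was called without repeat 2 of YEJH-M3. The median over the 22 was 0.31. The 3 called genes do different things, since Cxcl12 and Ccl2 are chemokines and Il1a is an inflammatory cytokine.

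Single members passed in several other lists. Col5a2, a chain of fibrillar collagen V, was at 23.01, 24.4 and 26.8 against 0 to 3.97, and was the 1 called of 37 basement membrane and matrix genes (edgeR adjusted p = 0.00271). P4ha2, a prolyl hydroxylase that modifies collagen, was at 138, 169 and 161 against 19.8 to 82.8, the 1 called of 36 genes of glycolysis and the hypoxia response (edgeR adjusted p = 0.0133). Fkbp10, a collagen chaperone named by its distance and not by a list, was at 95.6, 104 and 96.8 against 0 to 35.7. In the Wnt and Notch list of 38 genes, the ligand Wnt11 was higher, at 102, 111 and 96.8 against 8.53 to 43.5, and the receptor Fzd3 was lower, at 3.54, 3.33 and 2.59 against 10.6 to 85.7. Among 44 angiogenic factors and guidance cues, Fgfr3, a fibroblast growth factor receptor, was higher at 45.1, 45.5 and 43.2 against 3.41 to 25.5 (edgeR adjusted p = 0.0308), and Ntn4 was lower as given above. The call of Fgfr3 was lost in 15 of the alternative settings. Of 16 imprinted and X inactivation genes, Igf2r, the mannose 6-phosphate receptor, was lower, at 2436, 2458 and 2320 against 3065 to 5634 (edgeR adjusted p = 0.00579).

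In the other 12 lists, 18 of 361 tested genes had an unadjusted edgeR p under 0.05. That share was above the 3.14% of all genes tested. These 12 lists held 0 calls by edgeR and 0 by DESeq2. They covered luminal and milk genes, class I antigen presentation and interferon response, integrins, proteases, ErbB signalling, TGF-beta signalling, lipid synthesis, mitosis, cell cycle brakes, glutathione metabolism, pyrimidine metabolism and Hox genes. Itgb1, the common integrin beta chain, was at 20777, 19850 and 20851 in YEJH-M2 against 16137 to 20795 in the others, and the libraries overlapped. H2-D1, a classical class I heavy chain, likewise overlapped, at 8682 to 9449 against 7260 to 10923. Without repeat 2 of YEJH-M3, Itga5 was called higher and Adamts5 lower in these lists. In the class I and interferon list, 14 of 35 genes lay below all 4 lines and none above, with a median log2 difference of -0.10. In the list for cholesterol and fatty acid synthesis, 12 of 38 lay above and 3 below, with a median of 0.17. For proliferation and mitosis these numbers were 3 and 6 of 43, with a median of -0.01.

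**Figure D2:**
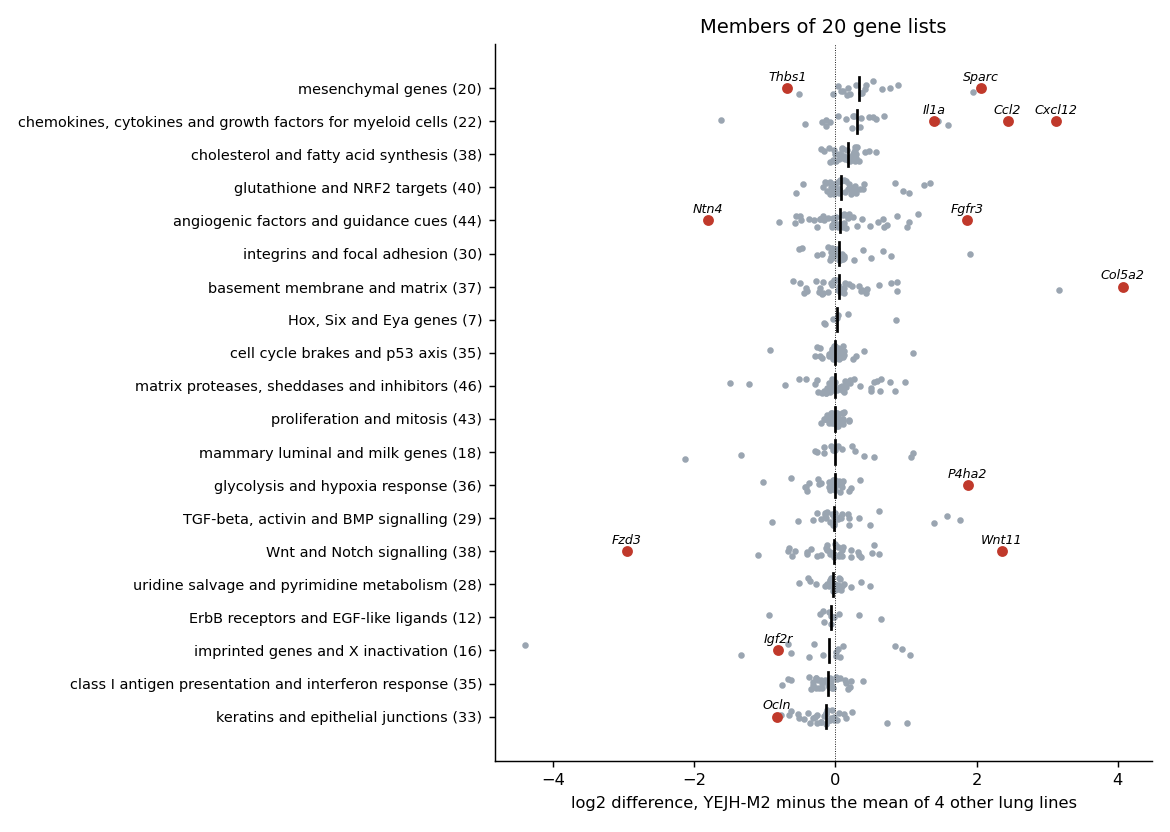
Log2 difference of YEJH-M2 from the mean of the 4 other lung lines (x axis) for every tested member of 20 gene lists, with the number tested in brackets. Red points passed the test and are named, grey points did not, and the black bar is the median of each list, which runs from -0.14 for keratins and epithelial junctions to 0.33 for mesenchymal genes.

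Upp1, which encodes uridine phosphorylase 1, the enzyme that releases uracil from uridine and the subject of the study, was at 564, 620 and 588 in YEJH-M2. The other lung libraries ranged from 364 to 576, with YEJH-M4 at 530 to 576, so the groups touched. The difference from the mean of the 4 lines was 0.36 ± 0.08 on the log2 scale, the distance to YEJH-M4 was 0.11, and Upp1 was not called (edgeR adjusted p = 1). Upp2, the second uridine phosphorylase, was at 9.51 to 12.2 in YEJH-M2.

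Xist, the long non-coding RNA that coats and silences the inactive X chromosome in female cells, was low in YEJH-M2 (chromosome X, 102503972 to 102537573). YEJH-M2 had 212, 128 and 156 normalised counts. The other 12 lung libraries had 2100 to 18240 with a median of 2856, and the top value came from repeat 2 of YEJH-M3, since its other repeats had 2416 and 2483. YEJH-M2 had 0.0398 of the mean level of the 4 lines. With all libraries the log2 difference from the mean of the 4 lines was -4.40 ± 0.74, with an edgeR adjusted p of 0.00455 for that difference. By the rule of 4 pairwise tests the gene missed the threshold (edgeR adjusted p = 0.0807). Without repeat 2 of YEJH-M3 it passed the rule (edgeR adjusted p = 1.59e-08). Against all 10 other YEJH lines with all libraries, it was called lower (edgeR adjusted p = 0.000162). The 15 fat-pad libraries had 1869 to 3624 and the YEJH libraries 2363 to 3801, so the 30 other YEJH libraries did not overlap with YEJH-M2. The library kit did not mark strand, so reads of Xist and of its antisense partner Tsix cannot be told apart.

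Some X-linked genes are known to escape this silencing. Pbdc1, Eif2s3x, Kdm6a, Kdm5c, Ddx3x, Utp14a and the Xist neighbours Jpx and Ftx were read after the Xist values had been seen. Pbdc1 was at 638, 585 and 605 in YEJH-M2 against 729 to 973 and was called lower, with a log2 difference of -0.57 ± 0.08 (edgeR adjusted p = 0.00795). Eif2s3x, a translation initiation factor subunit, differed between runs in every lung line. In run A it was at 2372 and 2348 in YEJH-M2 against 3265 to 3797, and in run B at 1690 against 2239 to 2498, and it was called lower (edgeR adjusted p = 0.000609). The histone demethylase genes Kdm6a and Kdm5c were at 383 to 423 against 470 to 784, and at 1594 to 1802 against 2086 to 3059. Neither was called with all libraries, with edgeR adjusted p of 0.0725 and 0.635, and both were called without repeat 2 of YEJH-M3, with 0.00834 and 0.0283. Jpx was at 36.6 to 40.7 in YEJH-M2 against 44.7 to 110, with a log2 difference of -0.64 ± 0.20, and was not called in either fit. Ddx3x, at 10404 to 11292 against 8849 to 12619, Ftx and Utp14a were not called in either fit. The log2 differences of Ftx and Utp14a were 0.006 and 0.03. Against all 10 other YEJH lines with all libraries, Pbdc1 was called lower (edgeR adjusted p = 0.0141). Eif2s3x, Kdm6a and Kdm5c were not called there, with edgeR adjusted p of 0.0656, 0.393 and 0.475.

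**Figure D3:**
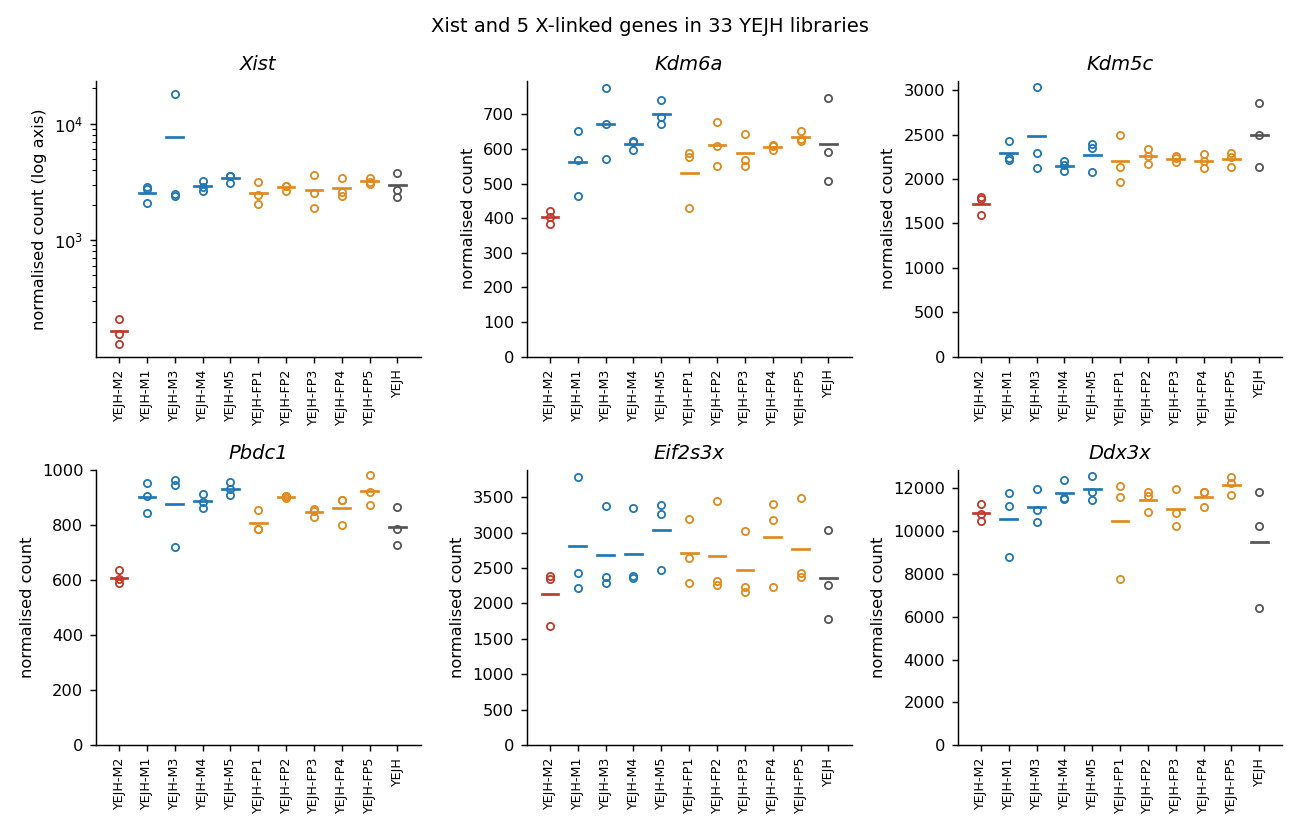
Normalised counts of Xist (log axis) and of Kdm6a, Kdm5c, Pbdc1, Eif2s3x and Ddx3x (linear axes from 0) in 33 YEJH libraries, with 3 points and a mean bar for each line; YEJH-M2 is red, other lung lines blue, fat-pad lines orange and the primary tumour line grey. Xist reaches at most 212 in YEJH-M2 and is at least 1869 in the others, whereas Ddx3x overlaps between YEJH-M2 and the other lines.

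The 439 tested genes of the X chromosome had a median log2 difference of -0.02, 84 of them (19.1%) lay below all 4 lines and 55 (12.5%) above, where 18.7% and 15.9% of all genes did. Of these 439 genes, 3 were called higher and 4 lower, where 0.537% and 0.235% of all genes tested were. Without repeat 2 of YEJH-M3 the numbers were 5 and 8, where 0.754% and 0.37% of all genes were called.

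By position along the genome, chromosome 15 had the largest median shift. Its 537 tested genes had a median log2 difference of 0.22, which is a fold of 1.16, while the medians of the other autosomes and of the X chromosome ran from -0.07 to 0.05. On chromosome 15, 286 genes (53.3%) lay above all 4 lines and 22 (4.10%) below, where 15.9% and 18.7% of all genes did. The shift was small for each gene, and 3 genes of the chromosome were called, Dhh and Cyth4 higher and Mal2 lower. Without repeat 2 of YEJH-M3, 6 were higher and 1 lower. Over all genes tested, 0.537% were called higher and 0.235% lower with that library, and 0.754% and 0.37% without it. The shift ran along the whole chromosome, since all 17 windows of about 25 neighbouring genes had a positive median, from 0.15 to 0.27. Windows on other chromosomes had medians from -0.10 to 0.12.

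The shift was shared in part by other lung lines. Relative to the other 10 YEJH lines, the level of chromosome 15 genes was 0.27, 0.27 and 0.24 log2 units in YEJH-M2. It was 0.15 to 0.24 in YEJH-M1 and 0.15 to 0.18 in YEJH-M4, so the highest YEJH-M1 library reached the lowest of YEJH-M2 to within 0.01. It was -0.07 to -0.03 in YEJH-M3, -0.13 to -0.12 in YEJH-M5, -0.08 to 0.05 in the fat-pad lines and -0.16 to -0.07 in YEJH. The median difference of YEJH-M2 from single lines was accordingly 0.08 for YEJH-M1, 0.11 for YEJH-M4, 0.29 for YEJH-M3 and 0.39 for YEJH-M5. Run A alone gave a chromosome median of 0.23 and run B alone one of 0.22. Smaller shifts were seen on chromosomes 4, 6 and 14. On chromosome 4 the median was 0.05, but YEJH-M2 differed from YEJH-M1 by 0.28. Its median differences from YEJH-M3, YEJH-M4 and YEJH-M5 there were -0.03, -0.01 and -0.03. On chromosome 6 the median was 0.05, 28.3% of genes lay above all 4 lines, and the library levels of YEJH-M2, 0.06 to 0.08 relative to the other 10 lines, did not overlap those of the other YEJH libraries, -0.03 to 0.03. On chromosome 14 the median was -0.07 and 33.3% of genes lay below all 4 lines, but the library levels overlapped. These medians are descriptions with no test, and DNA was not measured here.

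**Figure D4:**
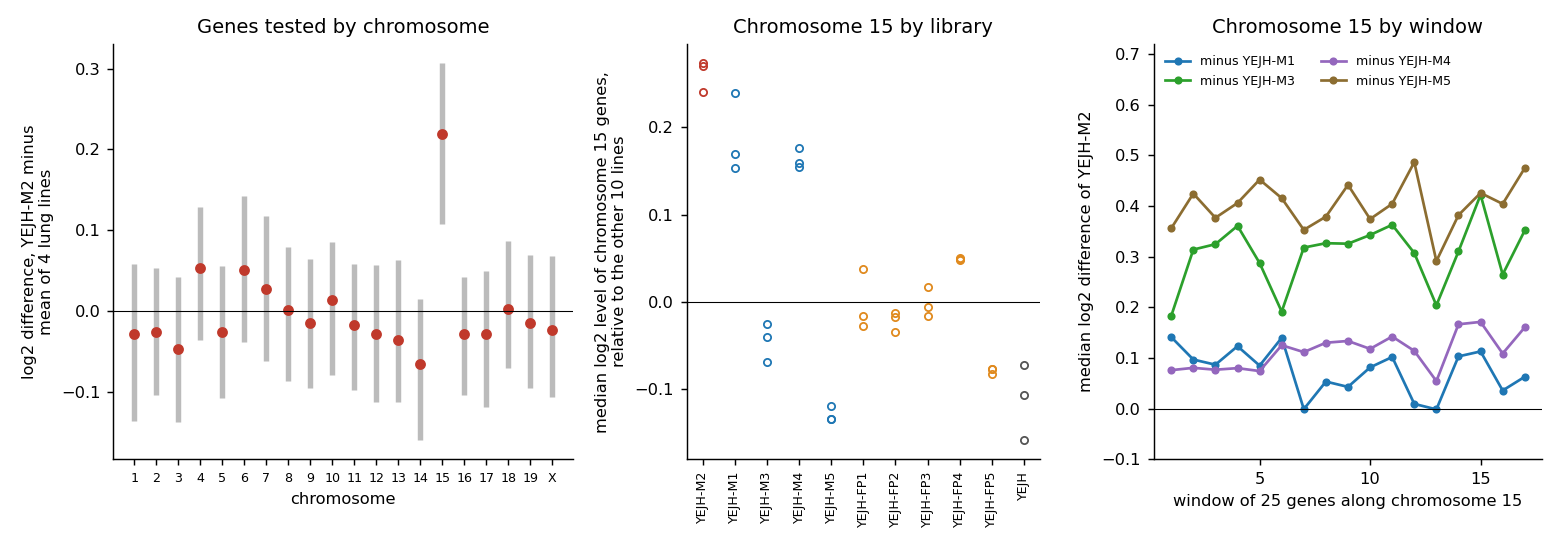
Left, median (red) and middle range from quartile to quartile (grey) of the log2 difference of YEJH-M2 from the mean of 4 lung lines by chromosome. Centre, median log2 level of chromosome 15 genes in each of 33 YEJH libraries relative to the other 10 lines. Right, median log2 difference of YEJH-M2 from each lung line in 17 windows along chromosome 15. Chromosome 15 stands at 0.22 while the other chromosomes stay between -0.07 and 0.05.

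Slfnlnc and the pseudogene Gm11427, both in the Schlafen cluster on chromosome 11, were called higher beside each other, with no other tested gene between them, and they were picked after their values were seen. Slfnlnc had a log2 difference of 4.22 and Gm11427 of 5.45. Reads of Gm11427 may be split with related Schlafen genes, so its value is uncertain. Promoter windows were at hand for only 71.2% of higher and 71.9% of lower genes, and a comparison of promoter sequence is void at under 80%.

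The level of YEJH-M2 was also compared with all 10 other YEJH lines at once. It lay beyond each of them for 63 genes higher, 0.452% of 13932 tested, and 29 lower, 0.208%, by the same edgeR rule. Of these, 55 higher and 22 lower genes were among the 105 called against the lung lines. Without repeat 2 of YEJH-M3 the numbers were 70 and 33. The fat-pad line of the same number was read on its own libraries. YEJH-FP2 lay above the mean of the 4 other fat-pad lines for 24 of 57 higher genes (42.1%), where it did so for 52.5% of all genes, and below it for 10 of 31 lower genes (32.3%), where it did so for 47.5%. The labels do not say whether lines of equal number come from one mouse.

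When the line was taken as the unit, with counts summed over repeats and 1 line set against 4, edgeR called 0 of 16294 genes (0%). The smallest adjusted p was 0.272, and 581 genes (3.57%) had an unadjusted p under 0.05, which included 94 of the 105 genes called between libraries. DESeq2 on the same sums called 57 genes and had 555 at an unadjusted p under 0.05. A limma voom model of single libraries with line as a random block called 157 genes, 117 higher and 40 lower. It assumes that 1 correlation, 0.259 here, holds for all genes.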

How the data were processed

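The deposited table held read counts for 54838 mouse genes, with 92.6% of identifiers found in GENCODE vM39 (GRCm39), the source of the symbols and coordinates. The authors made these counts, per their processing notes, with FastQC, HISAT2, SAMtools 1.2 and HTSeq; the notes name GRCh38 although the identifiers are mouse, and the TruSeq RNA v2 kit named for these lines does not mark strand. Classes naming no gene held 31.7% to 43.3% of reads and were left out. Each library held 9723860 reads or more, and precision at low counts is limited by counting error.

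edgeR 4.0.16 in R 4.3.3 fitted a quasi-likelihood model with a term per line and library run, after edgeR's filter on low counts and TMM scaling. DESeq2 1.42.0 and limma 3.58.1 served as alternatives. Named genes were the 15 in each direction farthest from the nearest line, with non-overlapping libraries and at least 50 normalised counts, leaving out pseudogenes, ribosomal protein genes and predicted or Rik transcripts, plus called list members, the most abundant members of lists without a call, Upp1, Upp2, Itgb1 and Xist. The members and lists were chosen with earlier results of these data known. Scripts were tested on simulated data. Some items are not reported here.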

Additional observations from a re-analysis of the deposited data

Results flagged for a closer look

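For 8 of 57 named genes, 1 of the 4 comparison lines lay far from the other 3 by Dixon's test on line means, which chance alone gives for about 1 in 20. YEJH-M1 stood apart for 4 of them. It was high for Acan at 413 normalised counts, where the other 3 lines had 11.2 to 44.3, and for Palmd at 99.0355, where they had 52.3 to 57.1. It was also high for Neurl1b at 137, against 73.2 to 78.2, and for Ccnd1, the cyclin D1 gene, at 38139, against 28727 to 29782. YEJH-M5 was low for Ckap4 at 27.9, against 131 to 147, and high for Fzd3 at 71.6, against 18.3 to 20.7. YEJH-M4 was low for Ocln at 672, against 863 to 878, and so lay nearest to YEJH-M2. YEJH-M3 was high for Xist at 7713, against 2570 to 3420, through its repeat 2 alone. Ccnd1 was the 1 gene of the 8 for which YEJH-M2 was called neither with nor without that repeat. The distance of YEJH-M2 to the mean of 4 lines is set in part by that line in each case, and the distance to the nearest line is not set by it except for Ocln.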

How the results depend on the processing

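All 105 called genes lay outside the other lines on the same side under every alternative in which they were fitted. The alternatives reused the libraries that gave the calls, so this is no independent check. Against 73 higher and 32 lower genes, 60 were lower with no filter on low counts, 48 higher with no library run covariate, and 52 lower with all 45 libraries in the fit. Run B alone gave 2 higher and 0 lower, and 110 higher and 29 lower against the mean of the 4 lines, where all libraries gave 703 and 385; fewer libraries entered that fit. Leaving out 1 library or line gave 36 to 132 higher and 19 to 67 lower, and 425 to 1049 and 198 to 564 against the mean. The lowest came without repeat 1 of YEJH-M2, which left 54 of the 105, and the highest without the whole line YEJH-M3, apart from 1049 without its repeat 2. Without YEJH-M1 there were 60 lower genes and without YEJH-M4 114 higher and 49 lower. The chromosome 15 median ran from 0.17 without YEJH-M5 to 0.27 without YEJH-M1. With the line as the unit, the count of 0 became 57 with DESeq2, 157 with limma voom, 13 with no filter and 1 in run A alone, and stayed 0 when a line was left out. The cause of these shifts was not tested.

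The repeat numbers were not used to pair libraries, since the labels do not say that a number marks a shared batch. With the replicate block 51 genes were lower and 93 higher, and 103 of the 105 were among them. Deviations of same-numbered libraries correlated at -0.37 to 0.54 over 30 pairs, 22 of them over 0.1, and 14 of 15 libraries correlated best with their own number, which is a hint from the data and not from the design. For named genes, 1517 values kept their direction and side of the threshold, 123 kept direction but missed it, 8 passed it, all for Xist, and 0 reversed.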
